A study of Ostreococcus tauri with 84 samples.

Results

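Glutamine synthetase (GS, ostta01g05020) of the marine picoalga Ostreococcus tauri, strain RCC4221, was followed here as 1 gene of the 7668 listed, chosen by its identifier, with a value in each of the 84 RNA-seq libraries. The libraries covered 6 light regimes, each sampled at 6 times of day every 4 h. Cells were kept in continuous photochemostat cultures on medium that held both nitrate and ammonium. In short days (SD, 8 h light and 16 h dark) and long days (LD, 16 h light and 8 h dark), 3 samples were taken per time point. Constant dark (DD) and constant light (LL) each followed SD or LD entrainment, with 2 samples per time point, which gives the regimes DD after SD, DD after LD, LL after SD and LL after LD. All regimes shared the strain and the medium recipe.

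Zeitgeber time (ZT) was counted from lights on and, in LL and DD, circadian time (CT) from subjective dawn. The study sampled each regime over consecutive days, so the samples of a time point are repeats from 1 culture regime, and the labels number them without saying which number was which day. The p-values below rest on the spread between such samples. SD and LD cultures also differed in dilution rate according to the study's methods, and day length, culture and dilution rate cannot be told apart. Those methods describe fresh medium as fed during the light period, and LL as held at the highest intensity of the diel light. They do not give the feed in LL and DD separately, so light and medium supply cannot be told apart there.

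GS joins ammonium to glutamate at the cost of ATP and makes glutamine, the entry point of inorganic nitrogen into amino acids. In algae and plants the ammonium is taken up directly or made from nitrate, which a nitrate transporter (NRT2, with its partner protein NRT3) brings in, nitrate reductase (NR) turns into nitrite and nitrite reductase (NIR) turns into ammonium. Glutamate synthase (GOGAT) then moves the amide nitrogen of glutamine onto 2-oxoglutarate, so that GS and GOGAT together form a cycle. In photosynthetic cells the reductant and ATP for these steps come largely from light reactions, and glutamine is used further by enzymes such as asparagine synthase and carbamoyl-phosphate synthase.

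GS was among the more highly expressed genes in nearly all libraries. Levels are given in FPKM, fragments mapped to a gene scaled by its length and by the size of the library. The median percentile of GS among all genes was 94.6 in DD after SD, 88.1 in DD after LD, 96.9 in LL after SD, 96.6 in LL after LD, 95.9 in SD and 96.7 in LD. In 78 of the 84 libraries GS lay between 106.5 and 1272 FPKM, always above at least 76.6% of genes. The other 6 libraries, those numbered 7 at CT12, CT16 and CT20 in both DD regimes, had 1.87 to 8.44 FPKM, and levels and comparisons in DD are given with and without them. Depth, estimated from the steps between the lowest values, had a median of 8580000 reads per library, and the shallowest library had 510000. The 3 shallowest, with 510000, 780000 and 1500000 reads, were number 3 of LD at ZT0, ZT4 and ZT8, and the next was number 4 of LL after LD at CT0 with 2080000. Number 3 of LD had 2590000 to 6410000 reads at the later times, and 251 to 1007 genes at 0 over the day, against 99 to 357 in numbers 1 and 2 of LD. GS was highest in number 3 at all 6 time points of LD.

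Averaged over the day, GS had 384 ± 278 FPKM in DD after SD (standard deviation over libraries, n = 12), 232 ± 228 in DD after LD (n = 12), 699 ± 131 in LL after SD (n = 12), 702 ± 134 in LL after LD (n = 12), 537 ± 169 in SD (n = 18) and 664 ± 309 in LD (n = 18). In bulk samples, fewer cells with GS transcript and less transcript per cell cannot be told apart. The 36 combinations of regime and time point were also ranked by mean. Neighbours in such an order lie close together by its making, so small gaps do not show that levels are graded. Of the 35 gaps between neighbours in that order, 34 were no larger than the larger standard deviation of the pair. The exception lay between SD ZT20, 533 ± 65.7 FPKM, and SD ZT8, 440.2 ± 73.1 FPKM (n = 3 each). Without the 6 libraries, GS averaged 511 ± 185 FPKM in DD after SD and 306 ± 215 in DD after LD (n = 9 each), and with DD at CT12 to CT20 left out 27 of 29 gaps between 30 combinations were no larger than that standard deviation.

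Under diel cycles GS rose and fell once a day. Its means were highest at night in SD, and from lights off across the night into the early light period in LD. At ZT0 the 3 SD samples had 355, 477 and 357 FPKM and the 3 LD samples 832, 786 and 1272 FPKM. At ZT4 the values were 406, 335 and 397 FPKM in SD and 729, 608 and 979 FPKM in LD. SD thus lay below LD in the early day. At ZT8, when lights had just gone off in SD and were still on in LD, GS had 425, 519.6 and 376 FPKM in SD and 218, 225 and 258 FPKM in LD. At ZT12 it had 673.5, 709.8 and 783 FPKM in SD and 356, 358 and 535 FPKM in LD. At these times SD lay above LD. At ZT16 the SD samples had 662, 663.5 and 922.5 FPKM and the LD samples 568.5, 654.5 and 1047 FPKM, and the groups overlapped. At ZT20 the SD samples, with 468, 533 and 599 FPKM, lay below the LD samples, with 717, 715 and 1087 FPKM.

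**Figure D1:**
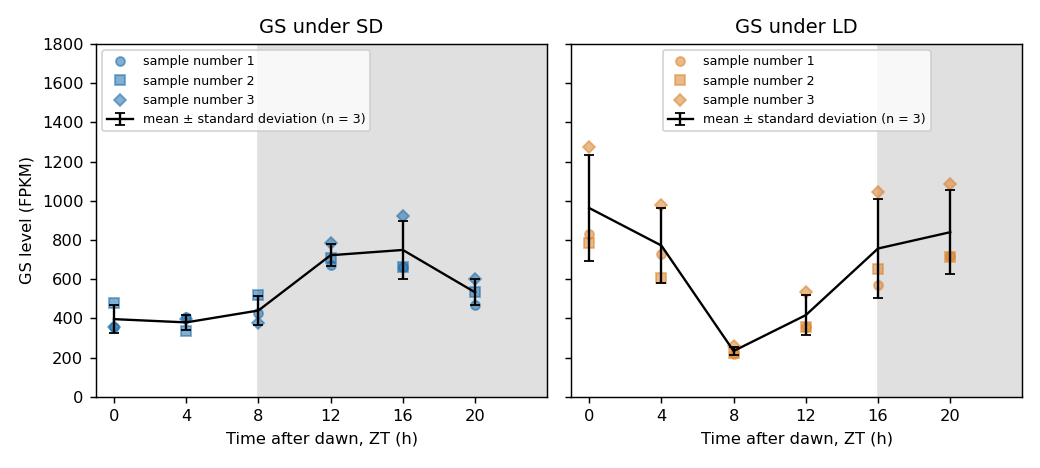
GS level in FPKM (vertical axis, from 0) against hours after lights on (horizontal axis) in SD (left) and LD (right); points are single samples by number, the line joins the means, bars are standard deviations (n = 3) and grey marks the dark period. SD means run from 379.5 at ZT4 to 749 FPKM at ZT16, and LD means from 234 at ZT8 to 963 FPKM at ZT0.

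A circular rank test for 1 peak in 24 h called GS rhythmic in both photoperiods. The adjusted p was 0.00126 in SD, where 51.5% of genes were called, and 0.000223 in LD, where 69.4% of genes were called. A change over the 6 times of day by limma gave the same calls, with adjusted p = 0.000969 in SD (57.7% of genes called) and 4.30e-09 in LD (80.5% of genes called). A rhythm of 12 h was not called in SD (rank test, adjusted p = 0.964, 4.43% of genes called) or in LD, where the rank test called 0 genes and 230 had an unadjusted p under 0.05.

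Between neighbouring time points of the diel cycles the largest change of GS was a fall in LD around the middle of the light period. The mean fell to 234 ± 21.4 FPKM at ZT8, against 772 ± 189 at ZT4 (n = 3 each), a log2 difference of -1.70 (SE 0.25, limma, adjusted p = 6.34e-07, 36.1% of genes called), while the median gene changed by -0.05. GS then rose by 0.81 on the log2 scale between ZT8 and ZT12 (adjusted p = 0.00864, 37.8% of genes called, median gene 0.39) and by 0.84 between ZT12 and ZT16, when the lights went off (adjusted p = 0.0267, 8.27% of genes called, median gene 0.17). In SD the 1 step called was between ZT8 and ZT12, the first hours of the night, with a rise of 0.72 on the log2 scale (SE 0.25, adjusted p = 0.0312, 21.3% of genes called, median gene 0.22). The fall in LD kept its call without each sample number in turn and with scaling by upper quartiles. The other steps called were less stable: the SD step had 0.56 to 0.86 and adjusted p from 0.098 to 0.173 without each number in turn, the LD step after ZT12 0.77 to 0.92 and 0.0552 to 0.179, and the LD step after ZT8 lost its call without number 1 (0.86, with adjusted p up to 0.0559). Upper quartile scaling brought these 3 steps to 0.53, 0.68 and 0.60, none of them called.

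The daily swing was smaller in SD than in LD in every sample number. The ratio of the highest to the lowest time point mean was 1.97 in SD and 4.12 in LD. Within single numbers it was 1.90, 2.12 and 2.58 in SD and 3.82, 3.49 and 4.93 in LD. Among genes averaging at least 10 FPKM the median ratio was 2.17 in SD and 3.16 in LD, and 42.5% of them in SD and 61.0% in LD swung less than GS. The swing of GS was therefore close to that of a middle gene in both photoperiods.

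**Figure D2:**
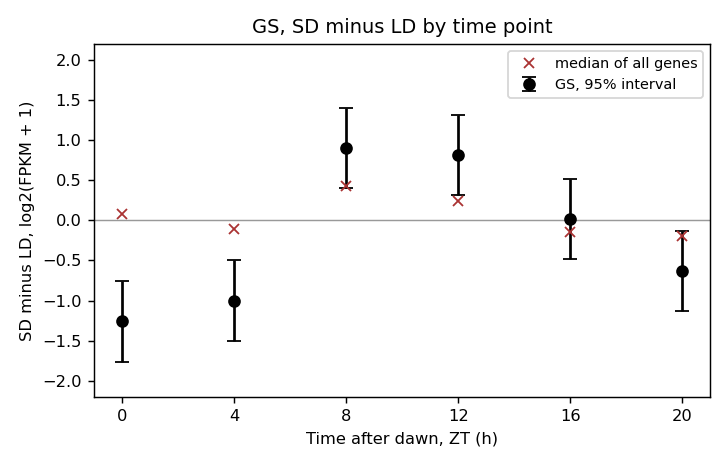
Difference SD minus LD of GS on the log2(FPKM + 1) scale (vertical axis) at each time of day (horizontal axis, hours after lights on), as dots with 95% intervals from limma; crosses give the median difference over all genes. GS lies below 0 at ZT0, ZT4 and ZT20, above 0 at ZT8 and ZT12, and at 0.02 at ZT16.

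The sign of the difference between photoperiods changed through the day. GS was lower in SD at ZT0, by a log2 difference of -1.26 (SE 0.25, limma, adjusted p = 5.27e-05), where 45% of genes were called. At ZT4 the difference was -0.999 (adjusted p = 0.00127, 39.3% of genes called). It was higher in SD at ZT8, by 0.90 (adjusted p = 0.00352, 39.3% of genes called), and at ZT12, by 0.82 (adjusted p = 0.00903, 32.8% of genes called). At ZT16 no difference was called (0.02, 95% interval -0.48 to 0.52, adjusted p = 0.966, 38.4% of genes called). At ZT20 GS was lower again in SD, by -0.63 (adjusted p = 0.0421, 36.3% of genes called).

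Scaling by upper quartiles moved the median of all genes by up to 0.17 in these differences. It divides all values of a library by the same factor. GS relative to the median gene is therefore kept nearly unchanged by construction, which is no separate check. Relative to the median gene, GS differed by -1.34, -0.89, 0.47, 0.58, 0.16 and -0.44 at ZT0 to ZT20. After scaling the same values were -1.34, -0.86, 0.45, 0.57, 0.17 and -0.43. The ZT20 difference was not called after scaling (-0.49) or without any 1 of the 3 numbers (-0.74 to -0.52, adjusted p from 0.105 to 0.166). The ZT8 difference lost its call without number 2 (0.75, adjusted p = 0.0896), and that at ZT12 without number 1 (0.77) or number 2 (0.73, adjusted p = 0.114).

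Over the whole day the level did not differ between SD and LD beyond the spread. The mean log2 difference was -0.19 (95% interval -0.40 to 0.01, limma, adjusted p = 0.114, 48.8% of genes called), and without number 3, which holds the 3 shallowest libraries of LD, it was -0.03. The shape of the day did differ, with adjusted p = 3.51e-07 for the photoperiod by time terms (limma, 68.9% of genes called).

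Cosine curves placed the peak of GS earlier in SD. In SD the fitted peak lay at 14.7 ± 0.53 h (SE) after lights on, with a mean of 537 and an amplitude of 204 ± 28.2 FPKM. In LD it lay at 21.9 ± 0.78 h, with a mean of 664 and an amplitude of 333 ± 67.9 FPKM. The peak in SD came 7.22 h earlier, since SD minus LD was -7.22 h (95% interval -9.15 to -5.30, adjusted p = 1.17e-07, 58.2% of genes called). The amplitudes were not distinguished (SD minus LD -128 FPKM, 95% interval -279 to 21.9, adjusted p = 0.213, 21% of genes called). Lights off comes 8 h earlier in SD than in LD.

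The genes rhythmic in both photoperiods mostly moved the same way. Among the 3133 genes rhythmic in both photoperiods by the rank test, the peak time difference had a median of -6.17 h and quartiles of -7.67 and -4.26 h, and 93.5% peaked earlier in SD. Of these genes, 32.6% had a more negative difference than GS.

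**Figure D3:**
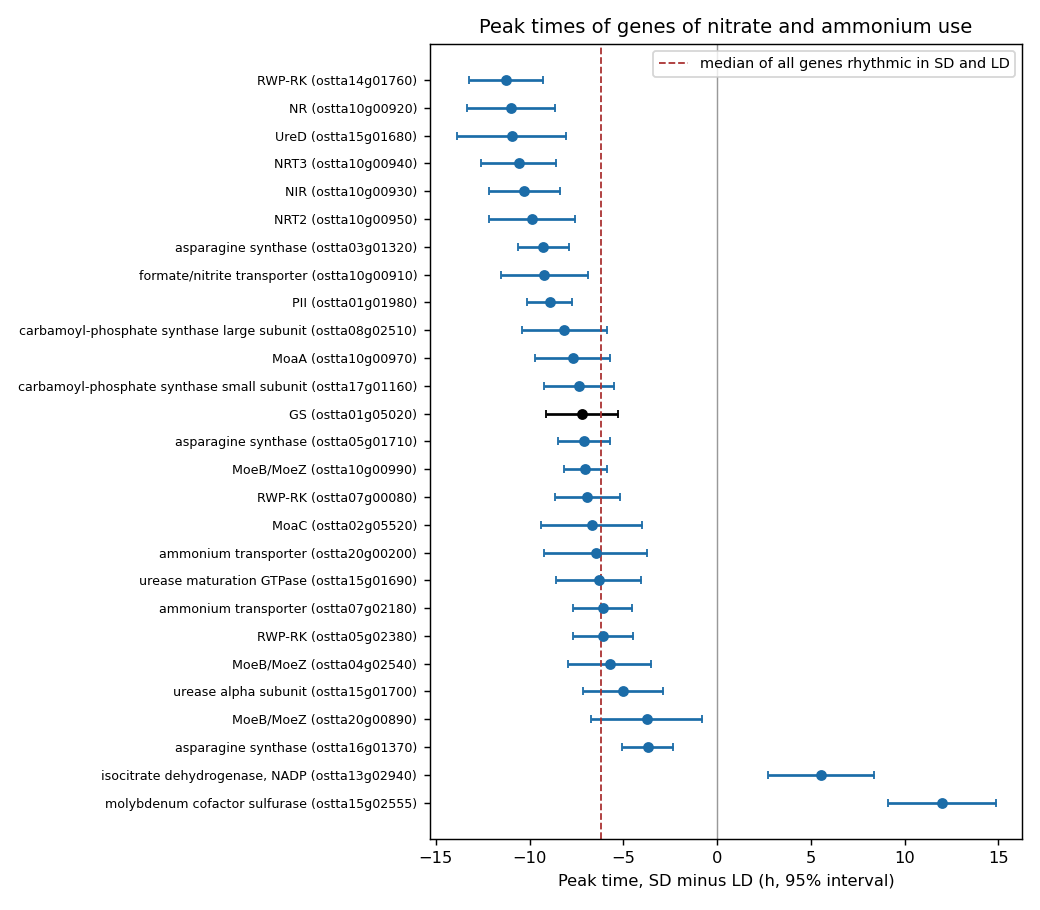
Fitted peak time in SD minus that in LD (horizontal axis, h, with 95% intervals) for the 27 listed genes rhythmic in both photoperiods, 1 row per gene with GS in black; the dashed line is the median of all genes rhythmic in both, -6.17 h. GS, at -7.22 h, sits in the middle rows, NRT2, NRT3, NR and NIR lie between -11.0 and -9.89 h, and 2 genes lie above 0.

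The genes upstream of GS had a larger difference in peak time. NRT2 peaked at 13.5 h in SD and 23.4 h in LD, and its partner NRT3 at 12.8 h in SD and 23.3 h in LD. NR peaked at 13.3 h in SD and 0.33 h in LD, and NIR at 13.5 h in SD and 23.8 h in LD. In SD the fitted peaks of these genes lay before that of GS, and in LD after it. The order in LD rests on the fitted curves alone, since the highest sampled mean of GS and of these genes was at ZT0. In SD the highest sampled mean was at ZT12 for these genes and at ZT16 for GS, which had 722 FPKM at ZT12 and 749 FPKM at ZT16. The SD minus LD differences were -9.89 h for NRT2, -10.6 h for NRT3, -11.0 h for NR and -10.3 h for NIR, with adjusted p between 1.04e-10 and 9.60e-09. Whether these orders and differences depart from GS was not tested, and a difference beyond 12 h would be read as one of the other sign.

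Among genes that handle ammonium and glutamine the timing was mixed. Of the 5 nitrite and ammonium transporters, the ammonium transporter ostta07g02180 peaked at 16.6 h in SD and 22.7 h in LD, a difference of -6.10 h. The formate/nitrite transporter ostta10g00910 peaked at 12.7 h in SD and 21.9 h in LD. The carbamoyl-phosphate synthase subunits, which draw on glutamine for arginine and pyrimidine synthesis, differed by -8.14 h (large) and -7.36 h (small). PII, a nitrogen status sensor in bacteria and plants, peaked at 20.1 h in SD and 4.99 h in LD, after GS in both. GOGAT, the other enzyme of the cycle, was not called rhythmic in SD (rank test, adjusted p = 0.373) and was called in LD (adjusted p = 0.0056), so no difference in peak time was taken for it.

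Over the 38 genes of nitrate, ammonium, urea and glutamine use listed, 29 were called rhythmic in SD and 32 in LD, against 51.5% and 69.4% of all genes. In SD these were 4 of 4 nitrate uptake and reduction genes, 1 of 2 of the GS and GOGAT pair, 3 of 5 nitrite and ammonium transporters, 6 of 9 molybdenum cofactor genes (NR needs that cofactor), 5 of 6 glutamine users, 3 of 5 urea genes, 6 of 6 regulators and the NADP isocitrate dehydrogenase. In LD the counts were 4 of 4, 2 of 2, 5 of 5, 6 of 9, 6 of 6, 4 of 5, 4 of 6 and 1 of 1 in the same order. The urea gene ostta03g01840 was at 0 in SD and LD and could not be called. The molybdenum cofactor gene ostta01g05760 averaged only 0.43 FPKM in SD and 0.76 FPKM in LD. Of the 27 listed genes rhythmic in both, 25 peaked earlier and 2 later in SD, all with an adjusted p under 0.05 for the difference, and the median was -7.08 h. That share is close to the 93.5% of all genes rhythmic in both that peaked earlier in SD. Daily mean levels differed for 19 of the 38, with 10 higher and 9 lower in SD, where 28.7% of all genes were higher and 20.1% lower.

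In constant light GS stayed high and a daily wave was not called. In LL after SD, number 4 had 487, 501.5, 508, 709.8, 729 and 800.2 FPKM at CT0 to CT20, and number 5 had 818, 802.5, 859, 721, 774 and 678 FPKM. Number 4 was thus lowest at the start of the subjective day, where number 5 was near its highest. In LL after LD, number 4 had 903, 909.7, 741, 666.5, 838 and 738.5 FPKM, and number 5 had 607, 655, 603, 445 and 653 FPKM at CT0 to CT16 and 665 FPKM at CT20. Both numbers were lowest at CT12 there, and number 5 lay below number 4 at every time point.

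The rank test for a 24 h rhythm gave an adjusted p of 1 in LL after SD and 0.865 in LL after LD. The test made 0 calls in either LL regime, although 747 genes in LL after SD and 1694 in LL after LD had p below 0.05 before adjustment. With 2 samples per time point, limma called a change over time of day for 0.104% of genes in LL after SD and 5.58% in LL after LD, and GS was not among them (adjusted p = 1 and 0.997). The ratio of highest to lowest time point mean of GS was 1.15 in LL after SD and 1.41 in LL after LD, where the median gene of at least 10 FPKM had 1.37 and 1.65. On these means 5.87% of genes swung less than GS in LL after SD, and 24.2% did in LL after LD. The numbers ran in opposite order in LL after SD, and within single numbers the ratio was 1.64 and 1.27 in LL after SD and 1.37 and 1.49 in LL after LD.

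**Figure D4:**
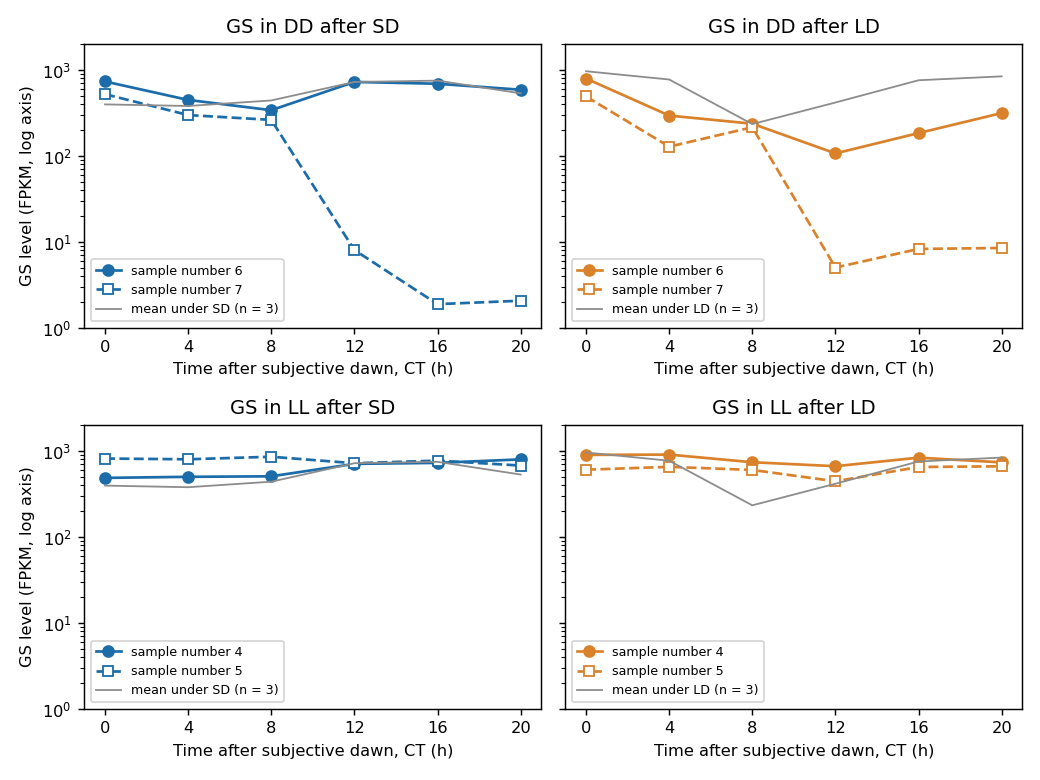
GS level in FPKM (vertical axis, log scale) against circadian time (horizontal axis, h) in DD after SD and DD after LD (top) and LL after SD and LL after LD (bottom), with 1 line per sample number and a grey line for the mean of the diel regime before it. In LL both numbers stay between 445 and 909.7 FPKM, and in DD number 7 lies at 1.87 to 8.44 FPKM from CT12 on while number 6 stays at or above 106.5 FPKM.

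The daily mean of GS was higher in LL after SD than in SD, by 0.42 on the log2 scale (95% interval 0.19 to 0.65, limma, adjusted p = 0.00333), where 35.6% of genes were called and the median gene differed by 0.11. This call was lost without number 5 of LL (0.25, adjusted p = 0.232) and when each regime and number gave 1 value (0.42, adjusted p = 0.203). LL after LD minus LD was 0.23 (95% interval 0.00 to 0.46, adjusted p = 0.123, 28.3% of genes called). It passed the threshold without number 3 of LD (0.42, adjusted p = 0.00219) or without number 5 of LL (0.44, adjusted p = 0.0286). The differences after SD and after LD were themselves not distinguished (0.19, 95% interval -0.14 to 0.51, adjusted p = 0.537, 10.6% of genes called), a test added after the data were seen.

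By time of day, comparisons also added after the data were seen, the largest gap was at the trough of LD. At 8 h GS had 741 and 603 FPKM in LL after LD and 218, 225 and 258 FPKM in LD, a log2 difference of 1.52 (SE 0.28, adjusted p = 6.33e-05, 20.6% of genes called). At 4 h it had 501.5 and 802.5 FPKM in LL after SD and 406, 335 and 397 FPKM in SD, a difference of 0.75 (adjusted p = 0.0376, 30.4% of genes called), which was 0.38 and not called after upper quartile scaling. The other 10 comparisons by time were not called for GS, in which 3.16% to 30% of genes were.

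The entrainment before LL left no called difference in GS. LL after SD minus LL after LD was -0.01 (95% interval -0.26 to 0.24, limma, adjusted p = 0.977, 32.9% of genes called). The numbers lay in opposite order, with 0.37 without number 4 and -0.38 without number 5. All 4 nitrate uptake and reduction genes were higher after SD in the same comparison: NRT2 by 1.49 (adjusted p = 2.64e-05), NIR by 0.93 (0.000171), NRT3 by 0.63 (0.0268) and NR by 0.55 (0.0452). GOGAT had 0.03 (adjusted p = 0.900). Over the 38 listed genes 10 were higher and 4 lower after SD, where 19.1% of all genes were higher and 13.8% lower.

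GOGAT had differences near those of GS between LL and diel cycles. In LL after SD minus SD it was higher by 0.38 (limma, adjusted p = 0.00768), and in LL after LD minus LD its difference was 0.24 (adjusted p = 0.109). Of the 6 glutamine users, 4 were higher in LL after SD than in SD, where 24.2% of all genes were higher. In LL after LD, 5 of the 6 were higher than in LD, against 23.2% of all genes. The asparagine synthase ostta16g01370 had the largest of these differences, 1.09 after SD and 1.06 after LD. Of the nitrate uptake and reduction genes, NIR was higher in LL after SD than in SD (0.47, adjusted p = 0.0304) and NRT2 lower in LL after LD than in LD (-0.87, adjusted p = 0.00584, 5.05% of genes lower), and the other pairs were not called.

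In constant dark the samples numbered 6 and 7 differed more from each other than the regimes did. In DD after SD, number 6 had 732, 446.5, 339, 723, 689 and 587 FPKM at CT0 to CT20. Number 7 had 521, 298 and 261.5 FPKM at CT0 to CT8, and then 7.99, 1.87 and 2.05 FPKM at CT12 to CT20. In DD after LD, number 6 had 792, 294, 236, 106.5, 183.5 and 314 FPKM, and number 7 had 489.7, 127.5, 215, 4.99, 8.22 and 8.44 FPKM. In both regimes, number 7 was below number 6 at all 6 time points and near 0 at the last 3. The labels do not say in which order the numbers were sampled.

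On the log2(FPKM + 1) scale, number 7 minus number 6 was -6.33, -7.91 and -7.59 at CT12, CT16 and CT20 in DD after SD, where the medians over all genes were -0.50, -0.23 and -0.47. In DD after LD it was -4.17, -4.32 and -5.06, where the medians were -0.21, -0.28 and -0.38. At CT0, CT4 and CT8 the differences of GS were between -1.20 and -0.14. At most 35 to 241 reads fell on GS in those 6 libraries, which had 7430000 to 13060000 estimated reads each, against 8050000 to 10780000 in number 6 at the same times. They had 78 to 324 genes at 0, against 65 to 146 in number 6, and an upper quartile of 59.7 to 84.0 FPKM, against 82.1 to 104 FPKM. Across 6674 genes their log2 values correlated with those of number 6 at r = 0.879 to 0.906, and at r = 0.919 to 0.965 between the numbers at CT0 to CT8. In each of the 6 comparisons, at most 0.0913% of genes had a more negative difference than GS. The part of RNA or library quality in these values was not tested.

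**Figure D5:**
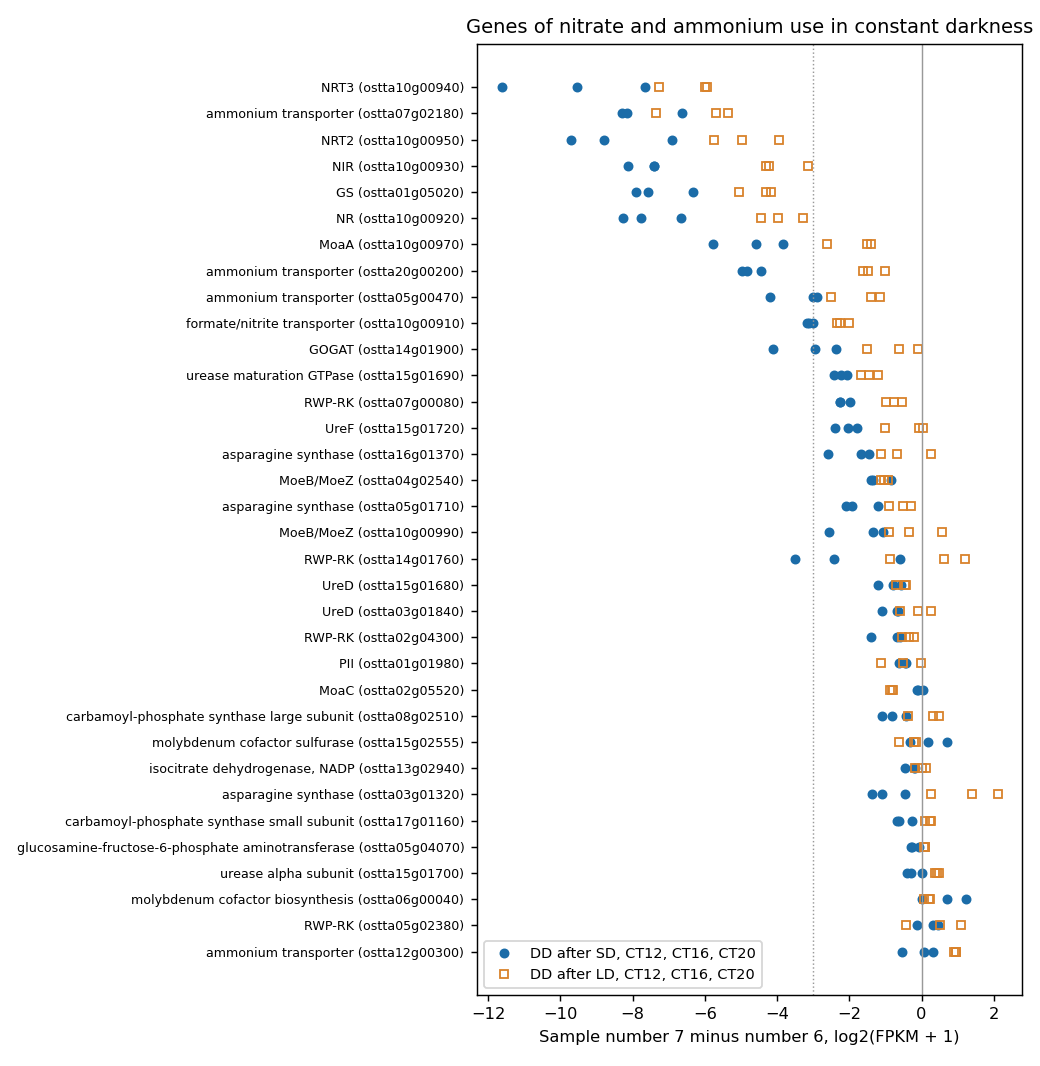
Sample number 7 minus number 6 on the log2(FPKM + 1) scale (horizontal axis) at CT12, CT16 and CT20 in DD after SD (filled circles) and DD after LD (open squares), 1 row per gene, for the 34 listed genes with a median of at least 10 FPKM in number 6; the dotted line is at -3. GS and 5 other genes lie wholly left of the dotted line, GS between -7.91 and -4.17.

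Few genes shared this pattern, and most of them act in the same pathway. A rule set after the GS values were seen asked for a log2 difference of -3 or less in all 6 comparisons, among the 6794 genes averaging at least 10 FPKM in number 6. It was met by 8 genes (0.118%), GS among them by construction, and the opposite rule by 0. The others were NRT2, NRT3, NR, NIR, the ammonium transporter ostta07g02180, and ostta10g00980 and ostta06g03640, which the files do not name. Thus 6 of the 38 listed genes met it, and 5 of the 8 carry a chromosome 10 tag, where NR, NIR, NRT3 and NRT2 have adjacent numbers. GS ranked 6th of the 8 by its median difference, -5.70.

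For the nitrate genes the libraries of number 7 were at or near 0. NRT3 had 6.62, 0 and 1.24 FPKM at CT12 to CT20 in number 7 of DD after SD, against 1537, 3165 and 1663 FPKM in number 6. NR had 0.64, 0 and 0 FPKM there in number 7 and 166, 305 and 218 FPKM in number 6. The ammonium transporter ostta07g02180 had 7.56, 2.68 and 1.99 FPKM in number 7 and 845, 1043 and 947 FPKM in number 6. Not every nitrogen gene behaved this way. GOGAT had 26.9, 13.6 and 4.37 FPKM in number 7 and 142, 112 and 92.3 FPKM in number 6, with a median difference of -1.94 over both regimes. The ammonium transporter ostta12g00300 had 78.7, 129 and 107 FPKM in number 7 and 63.5, 124 and 156 FPKM in number 6, with a median difference of 0.60, and the carbamoyl-phosphate synthase small subunit had a median of -0.09.

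With this spread no daily change of GS was called in DD. The rank test gave an adjusted p of 0.767 in DD after SD (36.4% of genes called) and 0.110 in DD after LD (2.5% of genes called). A change over time of day by limma had an adjusted p of 0.697 in DD after SD (34.1% of genes called) and 0.825 in DD after LD (14.6% of genes called). The numbers 6 and 7 deviated together in the 2 DD regimes, and with the number as a block these became 0.271 (57.2% of genes called) and 0.295 (31.9% of genes called). Without the 6 libraries the change in DD after LD passed the threshold (adjusted p = 0.0461, 17% of genes called), an alternative chosen after the data were seen. The times CT12 to CT20 then rest on 1 sample each, assumed to vary like the rest.

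No difference in mean GS level between the DD regimes was called with all libraries. DD after SD minus DD after LD was 0.45 on the log2 scale (95% interval -1.94 to 2.84, limma, adjusted p = 0.837), where 7.85% of genes were called. It was not called with the number as a block either, where 21.4% of genes were. Without the 6 libraries it was 1.14 (adjusted p = 0.00981, 20.3% of genes called), higher in DD after SD. In number 6 alone the gap was widest at CT12 to CT20, with 723, 689 and 587 FPKM in DD after SD and 106.5, 183.5 and 314 FPKM in DD after LD. At CT4 and CT8 number 6 had 446.5 and 339 FPKM in DD after SD and 294 and 236 FPKM in DD after LD. At CT0 it was lower in DD after SD, with 732 against 792 FPKM.

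The DD libraries are in a table made separately from the others, so their levels are set beside LL and diel levels with no test. As a sign of that separation, 3 genes listed at 0 in all 60 diel and LL libraries were above 0 in all 24 DD libraries. GS in DD after SD minus LL after SD was -2.22 on the log2 scale, a more negative difference than in all but 3.59% of genes. DD after LD minus LL after LD was -2.68, with 1.24% of genes more negative. DD after SD minus SD was -1.80 (2.58% of genes more negative) and DD after LD minus LD was -2.45 (0.835%). Without the 6 libraries these 4 differences were -0.40 (35.2%), -1.55 (5.07%), 0.02 (54.2%) and -1.32 (3.29%).

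By time point, DD after SD lay below LL after SD without overlap at 4, 8, 16 and 20 h, where 39.8%, 39.3%, 44.2% and 59.1% of genes did so. DD after LD lay below LL after LD at 4, 8, 12, 16 and 20 h, where 38.7%, 26.1%, 35.4%, 32.8% and 32.7% of genes did. Against the diel cycles, DD after SD was above SD at 0 h (17.7% of genes) and below it at 8 h (29.7%), and DD after LD was below LD at 4, 12, 16 and 20 h (21.5%, 30.3%, 30% and 28.3%). The shares of genes that did the same were thus 17.7% to 59.1%. Number 6 was the higher DD sample at every time point. Where DD lay below without overlap, number 6 therefore lay below too, and this is no separate check. DD after SD overlapped LL after SD at 12 h and overlapped SD at 12, 16 and 20 h.

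GS was higher than GOGAT per transcript length in all libraries outside DD. The ratio of GS to GOGAT FPKM had a median of 3.99 in DD after SD, 3.68 in DD after LD, 4.21 in LL after SD, 3.98 in LL after LD, 4.00 in SD and 4.25 in LD. The medians thus lay close together across regimes. GS exceeded GOGAT in 12 of 12 libraries of each LL regime and in 18 of 18 of SD and of LD. In DD it did so in 9 of 12 libraries of each regime, and the lowest ratios were 0.138 in DD after SD and 0.194 in DD after LD. Without the 6 libraries of number 7, GS exceeded GOGAT in 9 of 9 libraries of each DD regime, with medians of 5.08 in DD after SD and 3.89 in DD after LD.

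Over all 36 means, 4 of the 5 genes most like GS were of the same pathway. Across the 36 regime and time point means, on the log2 scale and among 6879 genes averaging at least 10 FPKM, Pearson's r with GS was highest for NRT3 (0.94), NIR (0.92), NR (0.91), GOGAT (0.91) and ostta16g02530 (0.91), which the files do not name. NRT2 ranked 7th with 0.88. The lowest value was -0.84, for ostta17g02005. The points share libraries between genes. Over the 30 means left without DD at CT12 to CT20, NRT3, NIR, NR, GOGAT and ostta16g02530 ranked 95, 56, 163, 465 and 110, with r from 0.75 to 0.87. Over the 24 means outside DD, the same genes ranked 851, 592, 905, 1581 and 554, and the 50 genes most like GS in the 36 and the 24 means had 0 in common. Outside DD the carbamoyl-phosphate synthase small subunit (r = 0.90) and the ammonium transporter ostta05g00470 (r = 0.89) were the listed genes nearest to GS.

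GS lies on chromosome 1 by its RefSeq entry. Its 5 neighbours on either side had means of 19.1 to 337 FPKM over all libraries and r from -0.36 to 0.50 with GS over the 36 means. None of the neighbours thus came near the values of the nitrate genes over these means, which include the DD libraries with GS near 0. Outside DD, where the nitrate genes had r from 0.67 to 0.76, the neighbours were not compared.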

How the data were processed

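RNA-seq of 84 samples was used. The authors processed single 75 nt reads with FastQC, HISAT2 and StringTie (versions not given in the sources used here) on the version 3 genome of the strain. They deposited FPKM values per gene in 2 tables, 1 for diel and LL samples (60) and 1 for DD samples (24), with no comparison columns. Of the DD values, 182 had no decimals and were checked for a lost decimal point. Here 181 of them were divided by 1000, where this brought them nearer the gene's other DD values. None of them belonged to GS. FPKM holds a share of each library, so 1 gene's value moves with all others.

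The members, gene lists and rules were chosen with earlier results of these data known. Groups came from the sample labels. Tests ran over all 7668 genes with Benjamini-Hochberg adjustment and a threshold of 0.05. Levels were compared with limma 3.58.1 (R 4.3.3, trended moderated variance) on log2(FPKM + 1), a scale that understates changes of low genes, with 1 fit per table. Rhythms were tested with a circular rank permutation test, and peak times and amplitudes came from cosine fits to FPKM. Numpy 2.4.6 and scipy 1.17.1 were used, and the steps were tested on simulated data. Depth was estimated from the spacing of low values, and its high end may be overestimated. Numbered samples of SD and LD did not deviate together (7 of 18 correlations over 0.1), nor did those of LL (0 of 12), and those of DD did (12 of 12, 0.325 to 0.633). That pairing comes from the data and the shared number.

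Alternatives were pseudocounts of 0.1 and 10, a filter at a mean of 1 FPKM, upper quartile scaling, a replicate block, 1 value per regime and number, and leaving out each number. Listed genes were the study's nitrogen genes plus those named in its supplement, and the genes named beside GS were the 5 most and 5 least like it over 36 means. A planned choice by product names was not made, since no product names were used. No sequence is shown, since none was used here. Of the gene identifiers, 7661 matched the RefSeq table (assembly version 140606). It was used for the chromosome, the neighbours, and the gene lengths behind the estimates of depth and of reads on GS.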

Additional observations from a re-analysis of the deposited data

Results flagged for a closer look

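The daily profile of GS differed between SD and LD by a test of the difference itself, the photoperiod by time terms of limma (adjusted p = 3.51e-07). It held without each sample number in turn, with adjusted p between 8.8e-06 and 0.000533.

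The fitted peak time also differed, by -7.22 h for SD minus LD, and leaving out each number gave -7.88 to -6.71 h. The 3 shallowest libraries, with 510000 to 1500000 reads, belong to number 3 of LD, and without that number the difference was -7.88 h.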

How the results depend on the processing

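The rhythm, daily profile and peak time of GS in SD and LD kept their calls in all alternatives run. Of the other values, those counted as changed follow, and the cause was not tested. With upper quartile scaling the SD steps ZT0 to ZT4 and ZT4 to ZT8 became 0.23 and -0.07, the steps called numbered 0 in SD and 1 in LD, SD minus LD at ZT20 was -0.49, LL after SD minus SD at 12 and 16 h 0.15 and -0.04, LL after LD minus LD at 4 h -0.10, and 2 of 38 listed genes were rhythmic in DD after LD, where 7.15% of all genes were. Leaving out each number gave ranges of -0.18 to 0.17, -0.01 to 0.35 and -0.06 to 0.11 for the SD steps from ZT0, ZT4 and ZT12, 0 to 0 steps called in SD and 1 to 2 in LD. For SD minus LD they were 0.75 to 1.08 at ZT8, 0.73 to 0.95 at ZT12, -0.08 to 0.12 at ZT16 and -0.74 to -0.52 at ZT20. LL after SD minus SD ranged from 0.25 to 0.59 (0.42 with 1 value per regime and number), LL after LD minus LD from 0.03 to 0.44, the difference of these from -0.19 to 0.56, and LL after SD minus LL after LD from -0.38 to 0.37. DD after SD minus DD after LD ranged from -0.19 to 1.09, with no test, and DD after SD minus SD from -3.74 to 0.14. Without the 6 libraries of number 7, chosen after seeing the data, these were 1.14 and 0.02, and the change over time in DD after LD had adjusted p = 0.0461.

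With the replicate block, GS had a rank test adjusted p of 0.000983 in SD, 1.95e-05 in LD, 0.207 in DD after SD and 0.0693 in DD after LD, so it changed no call of GS. Listed genes called rhythmic were then 23 of 38 in DD after LD (49.1% of all genes; 0 without the block, and 10 by a limma cosine, with 33.1% of all genes) and 8 in LL after LD (10.6% of all genes), and the number that changed over time was 8 for DD after LD (31.9% of all genes) and 12 for DD after SD (57.2%). By the rules used, another 251 main and 113 single values counted as unchanged. Tested values among them kept their direction and side of the threshold. Untested DD levels moved by less than the spread between numbers, and counts stayed within a set factor. Such DD levels still ranged widely without each number. DD after SD minus LL after SD ran from -4.16 to -0.28, DD after LD minus LL after LD from -3.98 to -1.38, and DD after LD minus LD from -3.75 to -1.15. Precision is limited by 2 samples per time point in LL and DD and by the depth of number 3 in LD at ZT0 to ZT8.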
